A study of Aedes aegypti with 8 samples.

Results

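The abundant transcripts of a resting mosquito midgut were examined here: the 98 gene identifiers with the highest counts in Aedes aegypti midguts kept without heme, out of 19712 identifiers in the count table. They were chosen by their mean CPM (counts per 1000000 counts of the library) over the 4 libraries at 0 µM heme. A run of 37 consecutively numbered identifiers, AAEL018658 to AAEL018694, was set aside before the totals were taken. Of the 100 highest rows that followed, AAEL003060 and AAEL007818 were left out by name. Because the 0 µM levels selected the members, those levels are a description and are not tested.

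The midguts came from sugar-fed Aedes aegypti females aged 3 to 5 days. They were held for 35 h at 0 µM or 10 µM heme in Schneider's Drosophila medium with antibiotics and glutamine. Per the paper, the medium of both groups was without fetal bovine serum. All 8 libraries, 4 per concentration, came from polyA RNA, and in both groups the tissue was isolated gut in culture rather than gut within a fed insect. Each library was made from pooled midguts, so a smaller number of cells of a type and less RNA per cell cannot be told apart.

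The adult female midgut is a single layer of epithelial cells wrapped in visceral muscle and tracheae. It digests blood, takes up amino acids, lipids and heme, and keeps its own protein synthesis machinery ready for the burst of enzyme production that follows a blood meal. Heme, the iron-containing group of hemoglobin, is needed in small amounts and is toxic in excess. Ribosomal proteins, elongation factors, actin, the mitochondrial ADP,ATP carrier and the vacuolar proton pump are the usual constituents of the abundant mRNA of such a tissue.

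One member had a use in the laboratory beside the sequencing. AAEL009496 encodes rpS7, a protein of the small ribosomal subunit that served as the RT-qPCR reference gene of the study, and the primers that amplify it are given to show what that reference rests on, written 5′ to 3′ with no base marked.
rpS7 forward: accgccgtctacgatgcca
rpS7 reverse: atggtggtctgctggttctt
The forward primer has 19 bases and the reverse primer 20. The count table covers the whole transcript model rather than the amplified stretch alone.

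Total counts were 46027977 to 56947544 per library, and 45875081 to 55359663 after the 37 rows were set aside. The total of 10 µM replicate 1 fell the most, from 53596619 to 49923793, and that library also had the lowest TMM factor, 0.8481, against 0.9609 to 1.076 in the others. TMM is the scaling of edgeR that sets libraries to a common level from the bulk of the genes. Product names were found for 34 of the 98 members and not for 64, since the naming source was a supplementary table of the study that pairs 773 of its 1547 identifiers with a product. An identifier without a name in that table is therefore called by its identifier only.

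The tissue label was compared with the named markers at hand. The 16 kDa proteolipid subunit of the V-type proton ATPase (AAEL000291), part of the proton pump of gut epithelium, was a member with a mean of 2111 CPM at 0 µM heme, and vacuolar ATP synthase subunits AAEL010819 and AAEL006516 had 237.8 and 125.3 CPM. Trypsin AAEL002273 lay between 0.163 and 0.480 CPM in all libraries, as the only named trypsin of the marker list. The visceral muscle protein paramyosin (AAEL000485) had 97.6 to 140.3 CPM. No identifier carried a product name of a fat body or hemocyte marker, so those cell types were not tested.

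Counts were concentrated on few identifiers. The members together held 45.9% ± 1.17 (SD, n = 4) of counts at 0 µM heme, with 47.2%, 44.4%, 45.8% and 46.3% in replicates 1 to 4. At 10 µM heme they held 47.0% ± 1.82 (SD, n = 4), with 49.2%, 46.1%, 47.7% and 45.0%. The groups overlapped. The first 2 members alone held 15.9% and 15.2% of counts at 0 and 10 µM, the first 10 held 25.3% and 25.6%, and the first 50 held 37.5% and 38.5%.

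To compare the concentration of counts without favouring the group that chose the members, each library's own 100 highest identifiers were summed. These sums include AAEL003060 and AAEL007818, whose counts match those of members AAEL019480 and AAEL019596. They are therefore not comparable with the share of the members, and the same reads may enter them more than once. At 0 µM heme the own 100 summed to 61.9% ± 1.05 (SD, n = 4), and at 10 µM to 62.6% ± 2.41 (SD, n = 4). The difference of 0.672 percentage points did not exceed the spread between libraries (exact permutation test, two-sided, p = 0.657, where 0.0286 is the smallest p that 70 arrangements allow). Its sign turned when the 37 rows were kept, to -0.427 points (exact permutation test, p = 0.886), and also without 10 µM replicate 1, to -0.301 points (exact permutation test, p = 0.80). With 1 identifier kept per set of matching counts, the difference was 1.08 points (exact permutation test, p = 0.486).

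Levels of the members covered a wide range. Mean CPM at 0 µM heme went from 91335 for AAEL019480 to 1440 for AAEL014843, with a median of 2213, so the highest was 63.4 times the lowest. CPM is not divided by transcript length, and these levels compare counts rather than molecules. The last members inside the limit were AAEL007771, AAEL008192 and AAEL014843 at 1468, 1454 and 1440 CPM. The first identifiers outside it were AAEL017975, AAEL010299 and AAEL009653 at 1424, 1424 and 1417 CPM, so the boundary fell in a continuous slope. The smallest count of any member in any library was 47851, and counting error was therefore small beside the spread between libraries.

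**Figure D1:**
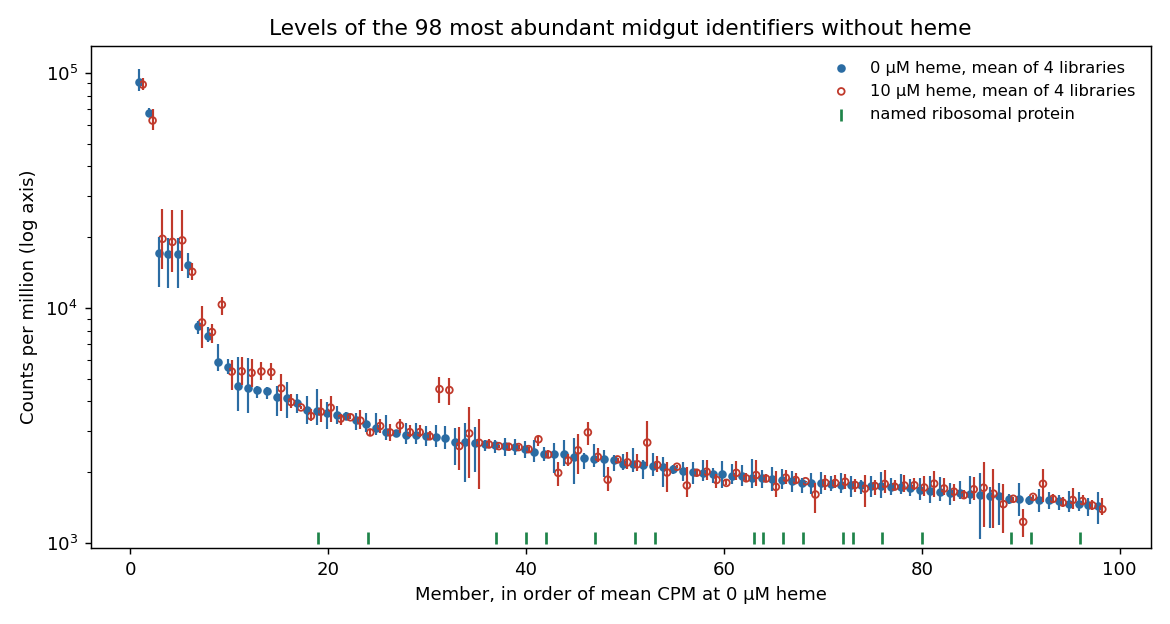
Mean CPM (log axis) of the 98 members in order of their level at 0 µM heme, for 0 µM (filled) and 10 µM (open), with vertical lines from the lowest to the highest of 4 libraries and green ticks under the 19 named ribosomal protein members. A pair of identifiers stands above all others, and beyond the first 10 the level declines slowly to 1440 CPM.

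The highest member, AAEL019480, has no product name here. It measured 87897, 103808, 83427 and 90208 CPM at 0 µM heme and 89175, 95408, 87422 and 84126 CPM at 10 µM. The groups overlapped and the log2 fold change (10 minus 0 µM heme) was 0.02 ± 0.10 (SE). The next member, AAEL019596, measured 70531, 68083, 65481 and 65891 CPM at 0 µM and 69907, 62033, 61212 and 57321 CPM at 10 µM, with a log2 fold change of -0.05 ± 0.12 (SE). Neither passed the exact test of edgeR (adjusted p = 1.00 and 0.990).

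These leading identifiers were not single counts. The counts of AAEL019480 matched those of AAEL003060, which the selection left out, within 0.0333% in every library, and AAEL019596 matched AAEL007818, also left out, within 0.0534%. The members held 3 further sets that agreed within 2% in all 8 libraries: AAEL021147 with AAEL005428, AAEL024562 with AAEL021795, and AAEL013536 with AAEL013533. The last pair was identical in every library. In all, 8 members lay in 5 such sets, and keeping 1 member per set left 95. How reads over overlapping or near-identical transcripts were assigned is not stated, and the levels of such identifiers are uncertain for that reason.

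The ranks that followed were held by a group of 3 identifiers that also moved together, AAEL019860, AAEL027243 and AAEL023799, whose counts agreed within 6.59%. AAEL019860 measured 19058, 12250, 17267 and 19992 CPM at 0 µM heme and 26341, 14637, 21709 and 15962 CPM at 10 µM. Its highest library was 2.15 times its lowest, the lowest value was in 0 µM replicate 2 and the highest in 10 µM replicate 1, and both groups spanned much of that range. Its log2 fold change of 0.26 ± 0.31 (SE) did not pass the test (adjusted p = 0.882). The 3 together held 5.11% of counts at 0 µM and 5.81% at 10 µM heme. They carried no product name, as was the case for AAEL001703 at 15183 ± 1722 CPM (SD, n = 4) and AAEL019403 at 8360 ± 430.9 CPM (SD, n = 4).

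The test across identifiers was the exact test of edgeR, fitted on the whole table and adjusted over the 11095 identifiers that passed its filter on low counts. All 98 members passed that filter. At an adjusted p of 0.05 the test called 3 members, 3.06%, beside 4.63% of all tested identifiers. All 3 were higher with heme, where 2.22% of tested identifiers were called. None was lower, where 2.42% of tested identifiers were called. No member was lower at an unadjusted p under 0.05 by the exact test either, while the quasi-likelihood test gave 1 such member and DESeq2 and limma voom gave 3 each. By the exact test, the share of members called in either direction together was below that of all tested identifiers. In the higher direction it was above it, where 2 of the 3 called members share their counts. The order in either direction together depended on the tool. The quasi-likelihood test called 3 members beside 2.85% of all tested identifiers, so the members' share was above. It was also above with DESeq2 (7 members beside 6.45%) and voom quality weights (7 beside 5.32%). With a replicate block it was below (5 members beside 6.53%).

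A missed threshold does not show that a level stayed put, so the interval of each difference was read as well. The 95% interval of the log2 difference from limma voom lay within 1.5-fold in both directions for 86 of 98 members, 87.8%, beside 49.1% of all tested identifiers. A narrower limit of 0.322 on the log2 scale held 41 members and 11.2% of all tested, and a limit of 2-fold held 97 members and 79.2% of all tested. High counts narrow an interval, so identifiers of the next ranks are the nearer comparison. Of the 400 identifiers that came next by the same 0 µM level, 79.5% had an interval within 1.5-fold and 2.75% were called. Their median absolute log2 fold change was 0.12, beside 0.075 over the members and 0.166 over all tested identifiers.

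**Figure D2:**
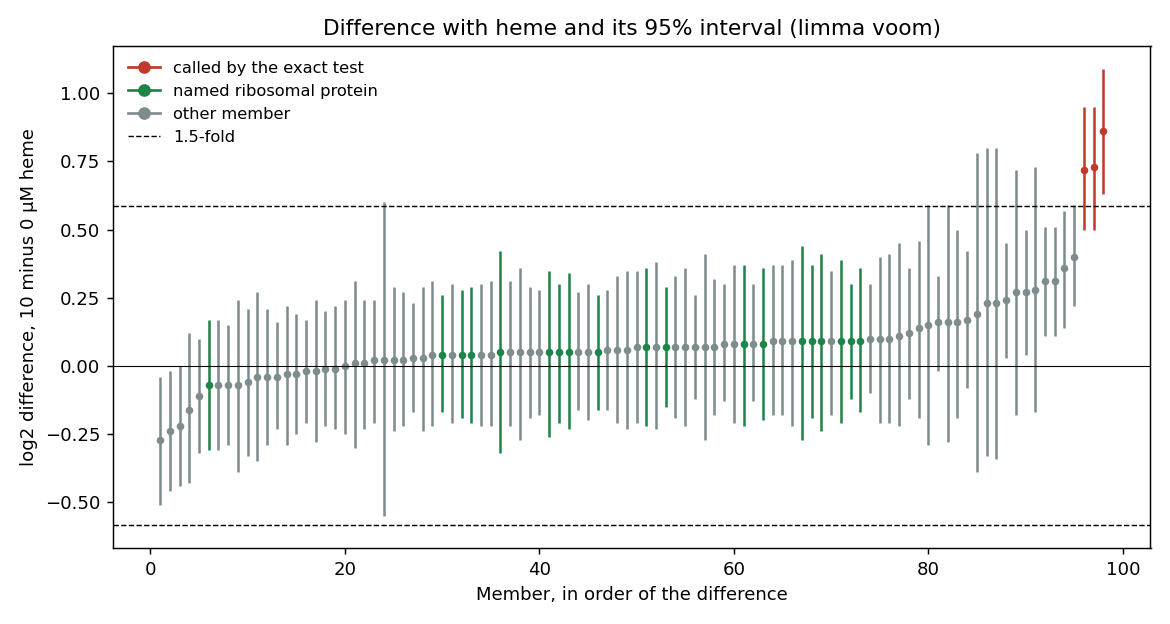
Log2 difference (10 minus 0 µM heme) of each of the 98 members with its 95% interval from limma voom, ordered by the difference, with dashed lines at 1.5-fold. The 19 ribosomal protein members (green) lie inside the dashed lines, and the 3 members called by the exact test (red) stand apart at the upper end.

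The order of the members also persisted. Of the 98, 92 were among the 100 highest by mean CPM at 10 µM heme, and 73 moved by 5 ranks or fewer. Those that left were AAEL011551, AAEL013353, AAEL005901, AAEL007771, AAEL008192 and AAEL014843, all of them at rank 90 or beyond at 0 µM heme. The rank correlation of the mean levels between concentrations was 0.976 over the 98 members, given as a description since all share the same libraries. The median log2 fold change was 0.068 over the members and 0.019 over all tested identifiers. Leaving out a library gave a median over the members of -0.018 without 10 µM replicate 1, 0.018 without 0 µM replicate 2, 0.118 without 0 µM replicate 1 and 0.115 without 10 µM replicate 4, and leaving out 0 µM replicate 1 with 10 µM replicate 2, the pair the study set apart, gave 0.133. With library totals in place of TMM, the medians over the members and over all tested became -0.026 and -0.066. The sign of the members' median thus depended on the scaling and on single libraries. It lay above the median over all tested on both scales, but not without 10 µM replicate 1 (-0.018 and -0.015). No direction is drawn from it.

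The clearest exception was AAEL022334, which has no product name in the source. Its levels were 5536, 5367, 7038 and 5658 CPM at 0 µM heme and 9360, 10466, 10336 and 11128 CPM at 10 µM. Every library with heme lay above every library without. The log2 fold change was 0.85 ± 0.10 (SE), a fold of 1.81, with an adjusted p of 0.00101 by the exact test of edgeR. It was called in all 19 alternatives (adjusted p up to 0.0254) and moved from rank 11 to rank 9.

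AAEL024562 rose from 2564, 2727, 3176 and 2828 CPM to 3922, 4471, 5065 and 4589 CPM. Its log2 fold change was 0.73 ± 0.09 (SE), with an adjusted p of 0.00702 by the exact test of edgeR, and the groups did not overlap. AAEL021795 had counts within 1.92% of these in every library and gave 0.73 ± 0.10 (SE) and 0.00684 by the same test, so the pair is counted by its shared counts as 1 measurement. The pair moved from ranks 33 and 34 to ranks 18 and 19. The calls of both were lost without 0 µM replicate 2 (adjusted p = 0.0664 and 0.0648, exact test of edgeR), without 0 µM replicate 4 (0.0658 and 0.0632) and without 10 µM replicate 3 (0.0857 and 0.0840), with log2 fold changes of 0.65 to 0.73. With 1 identifier per set, 2 of 95 members were called.

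Other members were raised by several tools but missed the threshold of the exact test. AAEL005766 measured 2056, 2368, 2400 and 2408 CPM at 0 µM heme and 2616, 3256, 2895 and 3053 CPM at 10 µM, a log2 fold change of 0.40 ± 0.06 (SE). Its adjusted p was 0.251 by the exact test, 0.00997 by the exact test without the 37 rows, and 0.000383 by DESeq2, within a range of 0.000383 to 0.586 over its alternatives. AAEL007765 measured 1864, 2210, 2265 and 2231 CPM at 0 µM and 2119, 2642, 2645 and 3290 CPM at 10 µM, and its log2 fold change was 0.36 ± 0.09 (SE). The groups of AAEL007765 overlapped in plain CPM and separated only after TMM scaling (adjusted p = 0.396, exact test of edgeR, and 0.0324 by DESeq2).

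AAEL021147, which shares its counts with AAEL005428, measured 4470, 4660, 4609 and 4138 CPM at 0 µM heme and 4946, 5139, 5885 and 5494 CPM at 10 µM. Its log2 fold change was 0.31 ± 0.07 (SE), with an adjusted p of 0.522 by the exact test of edgeR and 0.0262 by DESeq2. AAEL007765, AAEL021147 and AAEL005428 were chosen for mention after their values were seen. In TMM-scaled values the groups did not overlap for 8 members, 8.16%, beside 10.2% of all tested identifiers in either direction. All 8 were higher with heme, but the share of all tested identifiers was not split by direction. They include AAEL021147 with AAEL005428 and AAEL024562 with AAEL021795, pairs that share their counts. No direction is drawn from them for the members.

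**Figure D3:**
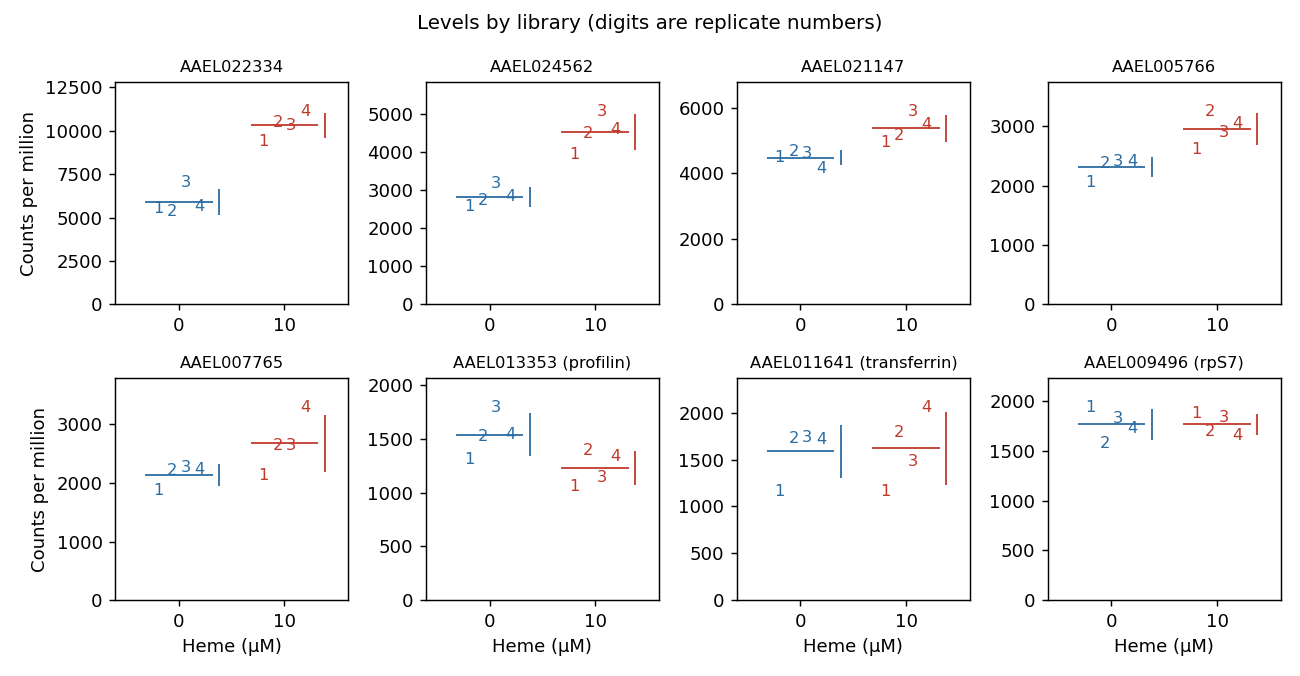
CPM in each library for 8 members, with digits marking the replicate number, a horizontal line at the mean of 4 libraries and a vertical bar of ±1 SD at each heme concentration. AAEL022334 and AAEL024562 separate by concentration, whereas transferrin and rpS7 overlap and transferrin is lowest in replicate 1 of both groups at 1163 CPM.

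The dispersion behind the exact test was examined because these tools differed in count. The median trended biological coefficient of variation, the between-library variation assumed at a given abundance, was 0.282 over the members and 0.221 over all tested identifiers. With the 37 rows out of the fit it was 0.161 over the members and 0.217 over all tested. The exact test then called 4 members, adding AAEL005766. DESeq2 and limma voom with quality weights each called 7 members, beside 6.45% and 5.32% of all tested identifiers.

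Ribosomal proteins were the largest named group, with 19 members between 3638 CPM (AAEL022286, S27) and 1468 CPM (AAEL007771, L22). Their summed share was 3.99% ± 0.340 (SD, n = 4) without heme and 3.99% ± 0.195 (SD, n = 4) with it. None of the 19 was called, none reached an unadjusted p under 0.05 by the exact test or by DESeq2, limma voom or the quasi-likelihood test, and their log2 fold changes lay between -0.08 and 0.10. All 19 had an interval within 1.5-fold, and the outermost bounds were -0.32 and 0.44. Of the 33 tested identifiers named as cytosolic ribosomal proteins in the whole table, 0 were called by the exact test in either direction. Of all tested identifiers 4.63% were called, and lists of 19 and 33 are too small to be read against that share. The median log2 fold change of the 33 was 0.06.

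Among them, S27 (AAEL022286) measured 4539, 3177, 3485 and 3349 CPM at 0 µM heme and 4084, 3489, 3615 and 3278 CPM at 10 µM. S2 (AAEL010168) measured 3567, 2975, 3189 and 3145 CPM and then 2988, 3037, 2868 and 2917 CPM, and had the lowest log2 fold change of the group, -0.08 ± 0.10 (SE). S6 (AAEL000032), the ribosomal protein phosphorylated downstream of TOR signalling, had 2599 ± 151.8 and 2582 ± 44.9 CPM (SD, n = 4 each), and S4 (AAEL023983) had 2522 ± 178.2 and 2507 ± 70.6 CPM (SD, n = 4 each). In S27, S2, S6 and S4 the groups overlapped.

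The reference gene rpS7 (AAEL009496) measured 1936, 1570, 1827 and 1727 CPM at 0 µM heme and 1876, 1694, 1838 and 1652 CPM at 10 µM. Its means were both 1765 CPM and its log2 fold change was 0.05 ± 0.13 (SE; adjusted p = 0.987, exact test of edgeR), with a limma voom interval of -0.23 to 0.34. Its SD over all 8 libraries was 0.179 on the log2 scale, which placed it at position 56 of 98 from the least to the most variable member. With library totals as the scale, the SD was 0.099 and the position 35. The lowest SD over 8 libraries under TMM, 0.083, belonged to the translation elongation factor AAEL004500, which stood at position 68 with library totals.

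The elongation factors, which deliver aminoacyl-tRNA to the ribosome and move it along the message, were among the highest named members. Elongation factor 1-alpha (AAEL017096) measured 8329, 7188, 7525 and 7329 CPM at 0 µM heme and 7090, 8079, 7882 and 8508 CPM at 10 µM, a log2 fold change of 0.10 ± 0.07 (SE). AAEL004500 measured 5217, 5384, 6087 and 5746 CPM and then 4487, 5510, 5419 and 6019 CPM, a log2 fold change of -0.02 ± 0.06 (SE). Both overlapped between groups and both had intervals within 1.5-fold. Over the 20 tested identifiers named as translation factors, 1 was called higher and 0 lower, and the 1 called was not a member. Beside these, 2.22% and 2.42% of all tested identifiers were called, and a list of 20 is too small to be read against them.

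Other named members included proteins that act in translation or on messenger RNA, along with an antizyme and a ubiquitin fusion. Polyadenylate-binding protein (AAEL010318), which binds the poly(A) tail, had 3323 ± 298.4 and 3315 ± 262.4 CPM (SD, n = 4 each). Rack1 (AAEL013069), a scaffold on the small ribosomal subunit, had 2252 ± 159.5 and 2267 ± 54.7 CPM. DEAD box RNA helicases AAEL013359 and AAEL010787, named outside the rule after their values were seen, had log2 fold changes of -0.04 ± 0.07 and -0.12 ± 0.08 (SE). Ornithine decarboxylase antizyme (AAEL004783), likewise added, which limits polyamine synthesis, had 1758 ± 119.4 and 1703 ± 249.9 CPM. Ubiquitin fused to ribosomal protein L40 (AAEL013536) had 2876 ± 264.4 and 2960 ± 159.2 CPM.

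Energy metabolism was represented by few named members. The ADP,ATP carrier (AAEL004855), which exchanges nucleotides across the inner mitochondrial membrane, measured 3475, 3221, 4207 and 3834 CPM at 0 µM heme and 3293, 3470, 3721 and 3376 CPM at 10 µM, with a log2 fold change of -0.04 ± 0.12 (SE). L-lactate dehydrogenase (AAEL012014), which converts pyruvate and lactate, measured 2206, 2334, 2752 and 2434 CPM and then 2595, 2837, 2856 and 2759 CPM. Its log2 fold change of 0.23 ± 0.08 (SE) did not pass the exact test of edgeR (adjusted p = 0.734). The proton pump subunit AAEL000291 measured 1727, 2207, 2187 and 2323 CPM and then 1648, 2129, 1988 and 2211 CPM, and was lowest in replicate 1 of both groups.

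The cytoskeletal members gave values on opposite sides of 0. Actin (AAEL011197) measured 3482, 4001, 4548 and 4663 CPM at 0 µM heme and 3627, 4959, 4377 and 5242 CPM at 10 µM, a log2 fold change of 0.17 ± 0.11 (SE; adjusted p = 0.892, exact test of edgeR). Profilin (AAEL013353), which binds actin monomers, measured 1302, 1517, 1791 and 1538 CPM and then 1060, 1392, 1136 and 1332 CPM. Its log2 fold change of -0.28 ± 0.10 (SE) was the lowest of the 98 members and did not pass the test (adjusted p = 0.622, exact test of edgeR), although its interval, -0.51 to -0.04, did not include 0. It moved from rank 92 to rank 127, the largest move of a member. The next lowest were AAEL002578 and AAEL018146, chosen after their values were seen, at -0.24 ± 0.09 and -0.22 ± 0.09 (SE). The counts of that pair agreed within 9.33%.

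Transferrin (AAEL011641), an iron-binding secreted protein, measured 1163, 1729, 1738 and 1716 CPM at 0 µM heme and 1163, 1792, 1474 and 2057 CPM at 10 µM. Its log2 fold change was 0.07 ± 0.17 (SE; adjusted p = 0.984, exact test of edgeR). Cyclin g (AAEL004865) had 2394 ± 255.2 and 2242 ± 106.4 CPM (SD, n = 4 each).

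Several classes usually tied to the gut had no named member among the 98. These were digestive enzymes, mucins and peritrophic matrix proteins, chaperones and immune effectors, although the 64 unnamed members may include some. Of the 11095 tested identifiers, 10349 had no product name, so each list below is only the named part of its class. The exact test called 0 higher and 1 lower of 14 named digestive enzymes. Beside these, 2.22% and 2.42% of all tested identifiers were called in those directions. Of 39 identifiers named as transporters, exchangers or channels, a list that held neither the ADP,ATP carrier nor the proton pump, 0 were called higher and 2 lower. It called 0 higher and 1 lower in each of the named chaperones (11 tested), immune effectors (4 tested) and mucins (1 tested), and lists this small cannot be read against a background of 2.42%.

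The members also varied between replicates of the same group, described here in TMM-scaled values. The median SD of log2 CPM was 0.164 at 0 µM and 0.170 at 10 µM heme over the members, beside 0.236 and 0.234 over all tested identifiers and 0.178 and 0.176 over the next 400 identifiers. The members of highest SD at 0 µM were AAEL004798 (0.377), AAEL022609 (0.373) and AAEL021789 (0.371). The lowest were AAEL019403 (0.05), AAEL011180 (0.053) and AAEL005766 (0.074). AAEL021789 and AAEL004798 agreed within 3.63% in counts, and AAEL021789 measured 6171, 3632, 4329 and 4488 CPM at 0 µM and 5812, 4793, 6179 and 4713 CPM at 10 µM heme.

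On the TMM scale, this variation lay mostly in 4 libraries. Their TMM factors were 0.984 and 1.076 in 0 µM replicates 1 and 2, and 0.848 and 1.07 in 10 µM replicates 1 and 4. With library totals, the median SD over the members was 0.132 at 0 µM and 0.10 at 10 µM heme. Over all tested identifiers it was 0.241 and 0.265 on that scale. The part of scaling in the deviations below was not tested. The median absolute deviation of the members from their group mean was 0.189 in 0 µM replicate 1, 0.172 in 0 µM replicate 2, 0.199 in 10 µM replicate 1 and 0.191 in 10 µM replicate 4 on the log2 scale, and 0.0474 to 0.0686 in the other 4. The ribosomal members had median deviations of -0.185 in 0 µM replicate 2 and -0.214 in 10 µM replicate 4, and deviated upward in replicate 1 of both groups. In TMM-scaled values, 56 of 98 members, 57.1%, were highest in replicate 1 of both groups, beside 23.6% of all tested identifiers and 29.5% of the next 400 identifiers. All 19 named ribosomal members followed this pattern. Their median deviation from the group mean was 0.228 at 0 µM and 0.225 at 10 µM heme on the log2 scale. The other 79 members include the 64 without a product name and ubiquitin fused to ribosomal protein L40 (AAEL013536). They are therefore not a set free of ribosomal proteins. Another 10 members, 10.2%, were lowest in replicate 1 of both groups, beside 22.9% of all tested identifiers. They included actin (AAEL011197), the proton pump subunit (AAEL000291) and transferrin (AAEL011641).

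The number of members showing this pattern moved with the scale. In the plain CPM that chose the members, 43 (43.9%) were highest and 23 (23.5%) lowest in replicate 1 of both groups, beside 14.7% and 32.0% of all tested identifiers. With library totals, 29 (29.6%) were highest and 25 (25.5%) lowest, beside 11.7% and 34.4% of all tested. The share of members that were highest in replicate 1 was thus above that of all tested identifiers on each of these 3 scales. The ribosomal members counted 15 of 19 highest in plain CPM and 10 of 19 with library totals, and 0 of 19 lowest on any of these scales. Without replicate 1 of both groups, an alternative added after the data were seen, 3 members were still called by the exact test and 89 had an interval within 1.5-fold. The TMM factors of these libraries were 0.984 at 0 µM and 0.848 at 10 µM heme, and the part of scaling in the pattern was not tested further.

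**Figure D4:**
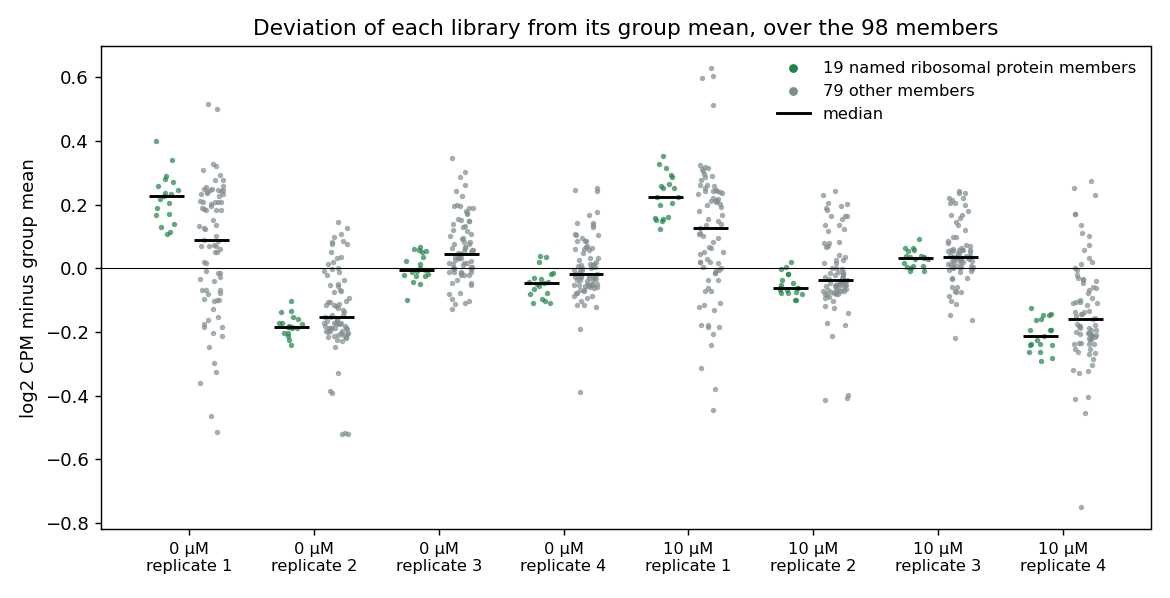
Deviation of TMM-scaled log2 CPM from the group mean in each of the 8 libraries, with a black line at the median. Each member is 1 point, with 19 named ribosomal in green and 79 others in grey. Of those 79, 64 have no product name. Replicate 1 of both concentrations has ribosomal medians of 0.228 and 0.225, while 0 µM replicate 2 and 10 µM replicate 4 lie below 0 at -0.185 and -0.214.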

How the data were processed

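Per the paper, HISAT2 (2.1.0 in the submitters' processing notes) placed single-end reads on AaegL5, SAMtools dropped poorly mapped ones, and bedtools (2.19.1) did the counting. The authors deposited raw counts per identifier, not normalized, with replicates separate. For strand, spliced reads and overlaps, the treatment was not given in the sources used here.

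As in the study, testing was by edgeR's exact test with Benjamini-Hochberg adjustment (here edgeR 4.0.16, R 4.3.3, two-sided, over 11095 identifiers). TMM, filterByExpr and estimateDisp without a design were choices made here. The 37 rows stayed in this fit and out of CPM. Intervals came from limma 3.58.1 voom. SEs belong to the 10 minus 0 µM difference in mean log2 CPM (prior count 2). Library measures were compared by exact permutation. Replicates are biological according to the study. In a single simulated data set, drawn without shared replicate effects, each tool made more false calls than its nominal rate. The exact test and DESeq2 made the most there, but a single draw cannot rank the tools.

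The members, lists and naming rule were chosen with earlier results of these data known. Named were the 10 highest members, called members, the first 4 of each product group, the 3 highest and 3 lowest SD at 0 µM, rpS7 and the boundary. Alternatives were the quasi-likelihood test (with and without a replicate block), DESeq2 1.42.0, voom quality weights, library totals, DESeq2 size factors, other filters, the fit without the 37 rows, and omitted libraries. Of the 19712 identifiers, 0 matched the RefSeq table (AaegL5.0), so positions, lengths and protein sequences are not used here.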

Additional observations from a re-analysis of the deposited data

Results flagged for a closer look

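A library far from the other 3 of its group was sought in the members named in the text, over 92 groups of 4 libraries, and 4 were found where chance gives about 1 in 20, or 4.6. Transferrin (AAEL011641) was 1163 CPM in 0 µM replicate 1 and 1716 to 1738 CPM in the other 0 µM libraries. AAEL005766 was 2056 CPM in 0 µM replicate 1 and 2368 to 2408 CPM in the others. AAEL007765 was 1864 CPM in 0 µM replicate 1 and 2210 to 2265 CPM in the others. AAEL011180 was 2973 CPM in 0 µM replicate 3 and 2917 to 2921 CPM in the others. That gap is large only beside the narrow range of its group, whose SD of log2 CPM was 0.053.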

How the results depend on the processing

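The count of 3 members called, all higher with heme, became 5 with the quasi-likelihood test and a replicate block, 7 with DESeq2 and 7 with voom quality weights. Leaving out a library gave 1 to 3, and 1 without 0 µM replicate 2, 0 µM replicate 4 or 10 µM replicate 3. Members called lower stayed at 0 in every alternative. The block added AAEL005766 and AAEL007765 (adjusted p = 0.0409 and 0.0488, edgeR quasi-likelihood). Over all tested identifiers the calls went from 514 to 725 with the block, 716 with DESeq2, 316 with the quasi-likelihood test without it and, leaving out a library, 333 to 549. Same-numbered libraries deviated together over all tested identifiers with correlations of 0.515, 0.0702, 0.0616 and 0.157 for replicates 1 to 4. Over the members these correlations were 0.869, 0.792, -0.0852 and 0.358, and over the ribosomal members 0.889, 0.522, 0.276 and 0.484. The exact test did not take the replicate numbers as pairs, and the fit with a replicate block did. Intervals within 1.5-fold numbered 85 to 91 across scalings, weights and omitted libraries, against 41 at a narrower limit of 0.322 on the log2 scale. The members shared with the highest at 10 µM were 45 of 48 with 50 taken and 188 of 197 with 200 taken. The own-100 share difference reversed to -0.4269 percentage points with the 37 rows kept, and ranged from -0.3015 to 1.653 when a library was left out. The median SD at 10 µM was 0.10 with library totals, and leaving out a library gave 0.104 to 0.191 at 0 µM and 0.128 to 0.201 at 10 µM. No named member that was called changed direction in any alternative. The causes were not tested.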
